A study of Bos taurus and Sus scrofa with 6 samples.

Results

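The cells described here are the pig testis cells that held transcripts of VPREB1 together with IRF8 or CTSS. They were found by their transcripts in single-cell RNA-sequencing libraries of whole testis from 3 mixed breed pigs aged 3 months, with 1 library per animal, and 216 of the 9457 called pig cells met the rule. The series also holds testis libraries of 3 Holstein cattle aged 4.5 months, with 18509 called cells, and 27966 cells were called in all. No animal carried a treatment or an allele of interest, and about 8000 live cells of each were loaded. Pig 2 and pig 3 share a testis number in the labels but carry tags of their own, and each was counted as 1 animal. The cattle gene table used here has no VPREB1 row by symbol, so the rule was not applied to cattle.

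Droplets gave every cell a barcode of its own, and unique molecular identifiers (UMIs) marked the captured transcripts, so that UMIs count molecules. A barcode was called a cell if its UMIs reached the 99th percentile of the 3000 deepest barcodes of the library, divided by 10, which was 2444 UMIs in pig 2, 3457 in pig 3 and far fewer in pig 1. A called cell was kept if it held at least 1 UMI of VPREB1 and at least 1 of IRF8 or CTSS. It was left out if it held UMIs of at least 2 genes of CD3E, CD3D and NKG7, of FSHR, AMH and CLDN11, or of DDX4, MAEL and TDRD1. DAZL, the last gene of the rule, has no row in the pig table by symbol. The cells were thus selected on their UMIs of VPREB1, IRF8 and CTSS, and the levels of these genes are a description without a test.

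VPREB1 encodes the small immunoglobulin-like subunit of the surrogate light chain, which stands in for the antibody light chain in the receptor of precursor B cells. IRF8 is a transcription factor of the interferon regulatory family that directs the development of dendritic cells and macrophages and is also used by B cells. CTSS encodes cathepsin S, a lysosomal protease that trims the invariant chain during antigen presentation. The best known immune cells of the testis are macrophages of the interstitium, beside smaller numbers of dendritic cells, mast cells and lymphocytes. Plasmacytoid dendritic cells, which depend on TCF4 and release type I interferon, share several genes with the B lineage.

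VPREB1 lies on the minus strand of pig chromosome 14, at chr14:49972058-49972768 of Sscrofa11.1 in the RefSeq annotation, the build that the study's methods name. It has 2 exons, at chr14:49972667-49972768 and chr14:49972058-49972585, and its coding sequence has 447 bases. IRF8 lies on chromosome 6 (chr6:3041617-3060685, minus strand) and CTSS on chromosome 4 (chr4:98415273-98442952, plus strand). The coding part of exon 1 (chr14:49972667-49972712) and the first 150 coding bases of exon 2 (chr14:49972436-49972585) are shown from the RefSeq genome because VPREB1 is the transcript that set these cells apart. They read 5′ to 3′ on the minus strand, with the start codon in capitals.
VPREB1 exon 1: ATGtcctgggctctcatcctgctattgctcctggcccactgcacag
VPREB1 exon 2: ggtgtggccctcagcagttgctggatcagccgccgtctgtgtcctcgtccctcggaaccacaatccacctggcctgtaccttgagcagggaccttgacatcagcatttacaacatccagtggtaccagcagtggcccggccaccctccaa

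Pig 1 held 77 of these cells, pig 2 held 11 and pig 3 held 128. They made up 2.37% of the 3248 called cells of pig 1 (exact 95% binomial interval 1.88% to 2.95%). The share was 0.280% of 3932 cells in pig 2 (0.14% to 0.50%) and 5.62% of 2277 cells in pig 3 (4.71% to 6.65%). The 3 intervals, which cover counting error only, did not overlap, and the mean share was 2.76% ± 2.69 (SD, n = 3). Pig 3 gave 59.3% of the 216 cells. The share depended on depth. With every called cell thinned to the threshold of pig 1 before the rule it was 2.06% (1.60% to 2.61%), 0.127% (0.0413% to 0.297%) and 3.16% (2.48% to 3.97%), and the intervals of pig 1 and pig 3 overlapped.

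**Figure D1:**
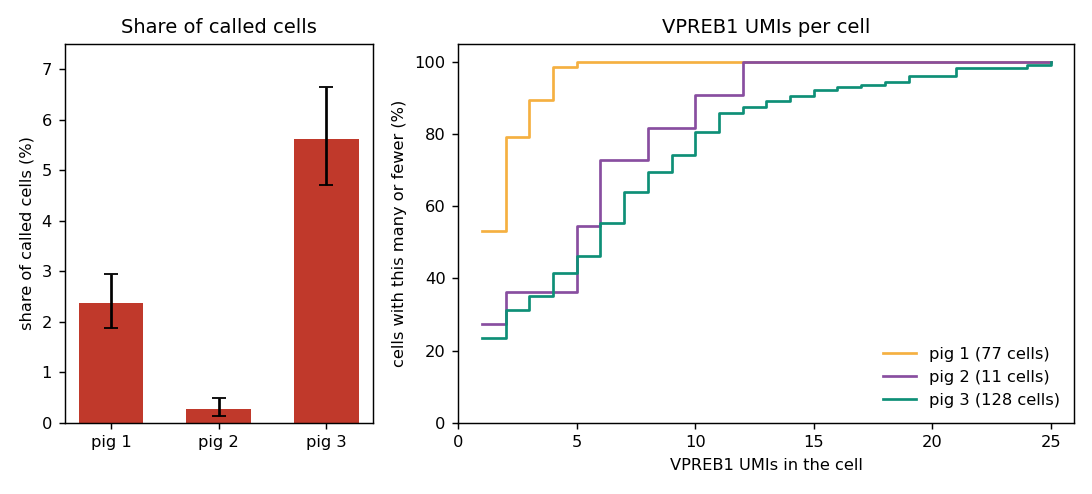
Left, share of called cells (%, bars) with the exact 95% binomial interval for each pig, and right, the cumulative share of these cells (%) by their number of VPREB1 UMIs. The share was 2.37%, 0.280% and 5.62% in pig 1, 2 and 3, and the VPREB1 UMIs of a cell reached 5 in pig 1, 12 in pig 2 and 25 in pig 3.

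The files hold 6245189 UMIs for pig 1, 40099873 for pig 2 and 33500750 for pig 3. Summed over the VPREB1 IRF8 cells, the depth was 69487, 82407 and 689713 UMIs, so that pig 3 carries most of the information. A cell had a median of 812 UMIs in pig 1, 3800 in pig 2 and 4206 in pig 3, against 897, 3899 and 6150 in all other called cells. The median number of genes was 433, 1420 and 1524. Mitochondrial genes took a median of 0.638%, 1.43% and 1.35% of the UMIs, against 1.21%, 2.25% and 1.91% in the other cells. Of the barcodes of these cells, 1 in pig 1 was also called as a cell in another pig, and none was one of these cells there.

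The called cells held 145 VPREB1 UMIs in pig 1, 62 in pig 2 and 872 in pig 3. The rule placed 95.2%, 91.9% and 97.7% of them in the selected cells. VPREB1 stood at 1986, 692 and 1235 CPM (UMIs of the gene divided by all UMIs of the summed cells, times 1000000) in the selected cells of pig 1, 2 and 3, against 1.59, 0.253 and 0.972 CPM in all other called cells. A selected cell had a median of 1 VPREB1 UMI in pig 1, 5 in pig 2 and 6 in pig 3. IRF8 was found in 53 of the 77 cells, 10 of the 11 and 121 of the 128, and CTSS in 77, 11 and 125.

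Cells at the limits of the rule differed between the pigs. In pig 1, 41 of the 77 cells rested on 1 VPREB1 UMI, and the other 36 on more. PLAC8, a cysteine-rich protein of immune cells, stood at 5669 and 7426 CPM in these 2 sets and CST3 at 92404 and 96888 CPM, while CD4 stood at 160 and 439 CPM and PLD4 at 426 and 752 CPM. In pig 3, 30 cells had 1 VPREB1 UMI, with PLAC8 at 3590 CPM against 8424 CPM in the 98 cells with more. In pig 2, 3 cells had 1 VPREB1 UMI and held 43775 of the 82407 summed UMIs. PLAC8 stood at 525 CPM and CST3 at 3427 CPM in those 3 cells, against 4970 and 52987 CPM in the other 8. The larger part of the pig 2 sum thus came from these 3 cells, 1 of which held 26659 UMIs.

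Just beyond its limits, 17 called cells held VPREB1 without IRF8 or CTSS, 7 in pig 1, 2 in pig 2 and 8 in pig 3. The 2 of pig 2 and 3 of those of pig 3 also held at least 2 genes of a set that the rule drops. Of the rest, PLAC8 was found in none of the 7 cells of pig 1 and in 2 of the 5 of pig 3. The rule also left out 1 cell of pig 2 and 3 cells of pig 3 that held germ cell markers. Cells with IRF8 and CTSS but no VPREB1 UMI numbered 93 in pig 1, 58 in pig 2 and 262 in pig 3. In pig 1 these cells had PLAC8 in 87.1% and the macrophage gene C1QA in 7.53%. In pig 2 they had PLAC8 in 56.9% and C1QA in 19.0%. In pig 3 they had PLAC8 in 85.1% and C1QA in 31.7%, while the 98 selected cells with more than 1 VPREB1 UMI had PLAC8 in every cell and C1QA in 15.3%. In pig 1 the cells without a VPREB1 UMI held CD4 in 29.0%, BCL11A in 48.4% and TCF4 in 57.0%, against 24.7%, 48.1% and 64.9% of the selected cells. In pig 3 the shares were 11.07%, 25.95% and 60.7%, against 67.2%, 84.4% and 87.5% of the selected cells.

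Most of the common leukocyte genes tested were higher in the selected cells. UMIs were summed over the selected cells and over all other called cells of each pig, and 15234 genes with at least 10 counts were tested with edgeR's quasi-likelihood test, without the genes that the rule used. In that test 314 genes were higher in the VPREB1 IRF8 cells, 2.06% of those tested, and 10 were lower, 0.0656%, at a Benjamini-Hochberg adjusted p under 0.05. With the pig as a replicate block the counts were 640 and 200, and without pig 3 they were 168 and 34. The median log2 fold change over all tested genes was -0.47. Of 8 pan-leukocyte genes, 5 were higher and none was lower, with a median log2 fold change of 2.59. PTPRC and LCP1 (edgeR adjusted p = 0.229 and 0.122) and SPI1 were not called in the fit without a block. RAC2, a small GTPase of blood cells, stood at 461, 267 and 571 CPM in pig 1, 2 and 3 against 23.6, 9.0 and 70.5 CPM. All 3 pigs were above every sum of the other cells, with a log2 fold change of 3.78 ± 0.64 (SE, edgeR adjusted p = 0.00411). LAPTM5, a lysosomal protein of leukocytes, ARHGDIB, an inhibitor of small GTPases, and the actin regulator CORO1A rose by 2.97, 3.18 and 2.86 on the log2 scale. The call of CORO1A was lost with 500 UMIs in every library and with thinned cells. CD53, a leukocyte tetraspanin, rose by 1.88 ± 0.44 (edgeR adjusted p = 0.0374) and lost that call without any of the 3 pigs, with adjusted p between 0.106 and 0.405.

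The 12 named genes with the highest fold changes included the surface receptors CLEC12A, P2RY14 and NCR1, the chemokine XCL1 and the adaptors GAPT and BLNK. CLEC12A, an inhibitory lectin receptor of myeloid cells, stood at 187, 133 and 228 CPM against 3.40, 0.758 and 2.72 CPM in all other called cells. Its lowest pig was far above the highest sum of the other cells, and the log2 fold change was 6.5 ± 0.63 (SE, edgeR adjusted p = 0.000170). SMIM5, a small membrane protein, stood at 201, 24.3 and 175 CPM against 3.40, 0.202 and 1.75 CPM (log2 fold change 6.56 ± 0.90, edgeR adjusted p = 0.000832). P2RY14, a receptor for UDP-glucose, was even across pigs at 216, 170 and 223 CPM against 5.44, 1.06 and 4.03 CPM (log2 fold change 5.99 ± 0.62, edgeR adjusted p = 0.000183). GAPT, a membrane adaptor that binds GRB2, stood at 130, 97.1 and 152 CPM against 4.76, 1.67 and 1.75 CPM. CRHBP, the binding protein of corticotropin-releasing hormone, stood at 43.2, 24.3 and 47.8 CPM against 0.453, 0.455 and 0.729 CPM. In none of these 5 genes did the pigs' values overlap between the groups, which is a description of genes picked for high fold changes.

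XCL1, the chemokine lymphotactin, stood at 216, 36.4 and 693 CPM against 5.44, 2.58 and 12.2 CPM (log2 fold change 5.78 ± 0.86, edgeR adjusted p = 0.00157). NCR1, the activating receptor NKp46 of natural killer cells, stood at 43.2, 60.7 and 92.8 CPM against 2.27, 0.0506 and 1.65 CPM (log2 fold change 6.01 ± 0.88, edgeR adjusted p = 0.00137). It lost that call with cells thinned to the threshold of pig 1. BLNK, the adaptor that links the B cell receptor to its signalling enzymes, stood at 417, 206 and 289 CPM against 10.2, 1.62 and 10.8 CPM (log2 fold change 5.41 ± 0.67, edgeR adjusted p = 0.000480). CD4, the co-receptor of helper T cells that porcine dendritic cells can also carry, stood at 288, 170 and 300 CPM against 12.5, 1.16 and 4.47 CPM (log2 fold change 5.53 ± 0.75, edgeR adjusted p = 0.000736). S100Z, a calcium-binding protein, MAP1LC3C, of the autophagy protein family LC3, and EPS8L2, of a family of actin regulators, completed the 12 at 6.46, 5.70 and 5.69. EPS8L2 lost its call without pig 3, at an edgeR adjusted p of 0.0565. The selected cells of every pig were above the other cells of every pig in each of these 12 genes. The 12 were picked for high fold changes with the same direction in every pig, so this separation is a description.

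Of the 20 genes listed for plasmacytoid dendritic cells, 15 have a row in the pig table and 14 were tested, of which 8 were higher and none was lower, against 2.06% higher over all tested genes. Their median log2 fold change was 2.80, against -0.47 over all genes. TCF4, the transcription factor that these cells require, stood at 1454, 473 and 551 CPM in pig 1, 2 and 3 against 164, 224 and 144 CPM (log2 fold change 2.26 ± 0.46, edgeR adjusted p = 0.014). It was highest in pig 1, and its call was lost without pig 1 (adjusted p = 0.137) and with 500 UMIs in every library. BCL11A, a zinc finger repressor, stood at 720, 316 and 377 CPM against 62.8, 17.1 and 34.3 CPM (log2 fold change 3.65 ± 0.54, edgeR adjusted p = 0.00157). PLD4, an exonuclease of the endolysosome, stood at 576, 279 and 534 CPM against 17.2, 6.93 and 34.4 CPM (log2 fold change 4.66 ± 0.59, edgeR adjusted p = 0.000490).

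IRF7, the factor that drives type I interferon genes, stood at 201, 121 and 348 CPM against 15.2, 10.7 and 69.3 CPM (log2 fold change 3.01 ± 0.65, edgeR adjusted p = 0.0229). That call was lost with 500 UMIs in every library and with cells thinned to the threshold of pig 1. SLC15A4, a lysosomal transporter needed for signalling by endosomal Toll-like receptors, and FLT3, the receptor that sustains dendritic cell precursors, rose by 2.60 and 3.40 on the log2 scale. Both calls were lost without pig 3, with edgeR adjusted p of 0.544 and 0.162. RUNX2, a runt family factor, was called on 1, 1 and 5 UMIs, and its call was lost without pig 2 (adjusted p = 0.0626). Without pig 3 it was no longer among the tested genes. Not every gene of the list was found: PTPRS, PTCRA and LAMP5 had 0 UMIs in the selected cells of all 3 pigs. PTCRA and LAMP5 had 1 and 41 UMIs in all other called cells. TLR7, the endosomal sensor of RNA, had 4 UMIs in these cells, all in pig 3, and passed with the pig as a block (edgeR adjusted p = 0.0443).

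**Figure D2:**
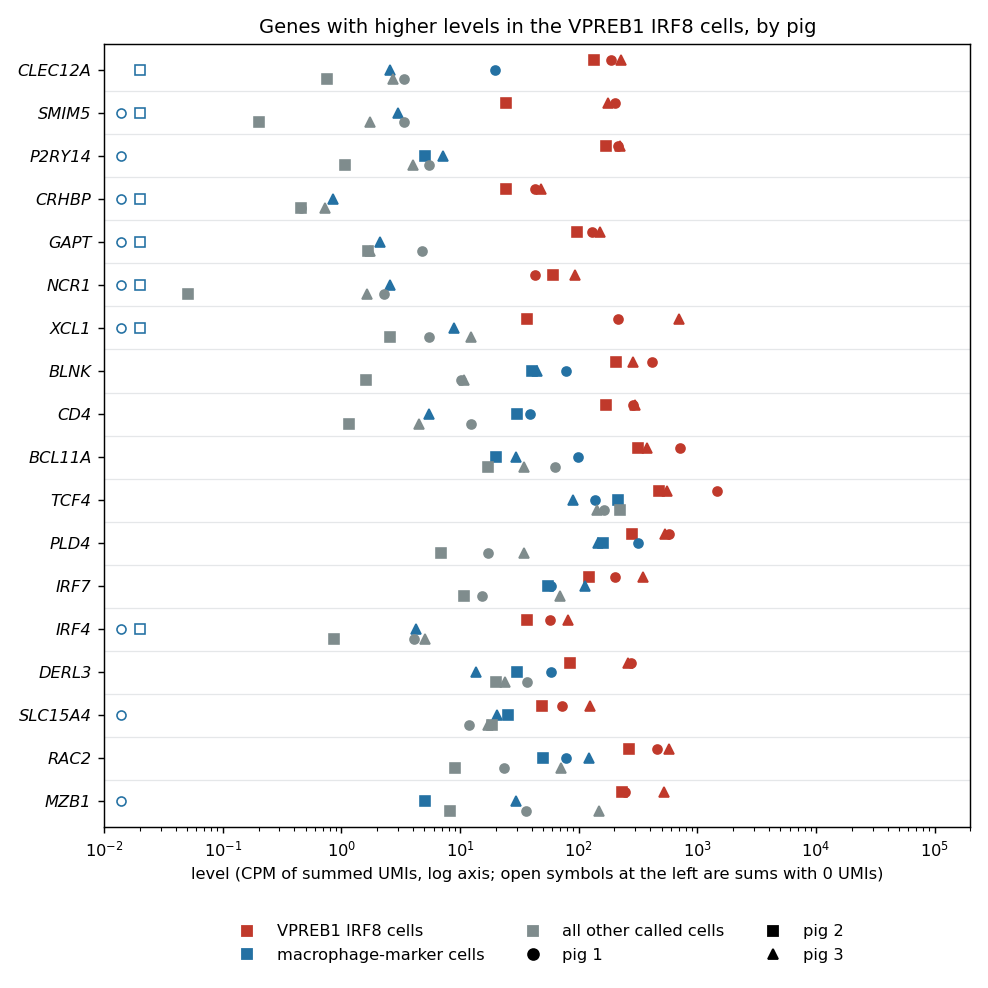
Levels of 18 genes in CPM of summed UMIs (log axis) for the VPREB1 IRF8 cells (red), the macrophage-marker cells (blue) and all other called cells (grey), with a symbol for each pig and open symbols for sums with 0 UMIs. CLEC12A stood at 133 to 228 CPM in the red symbols and at 0.758 to 3.40 CPM in the grey ones. TCF4 had closer groups, with a lowest red value of 473 CPM and a highest grey value of 224 CPM.

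Genes of the B cell lineage were found at few UMIs in these cells, apart from BLNK. Of 18 genes listed for the precursor B cell receptor and the B lineage, 14 have a row and 13 were tested. BLNK alone was called higher and none was called lower, against 2.06% higher over all tested genes. With the pig as a block 4 were higher, where 640 of all 15234 tested genes were higher. CD79A, DNTT and TNFRSF13C were those added (edgeR adjusted p = 0.0405, 0.000272 and 1.22e-07). TNFRSF13C, the receptor of the B cell survival factor BAFF, had 13 UMIs, all in pig 3. CD79A, the signalling chain of the B cell receptor, had 1, 0 and 4 UMIs in the selected cells of pig 1, 2 and 3, or 14.4, 0 and 5.80 CPM against 1.59, 0.0506 and 1.17 CPM in the other cells. DNTT, the polymerase that adds bases at the joints of rearranged receptor genes in precursor lymphocytes, had 0, 2 and 15 UMIs in 15 cells. It stood at 0, 24.3 and 21.7 CPM against 3.17, 4.25 and 3.21 CPM and did not pass without the block (log2 fold change 2.43 ± 0.69, edgeR adjusted p = 0.102). CD79B had 4 UMIs and MS4A1 had 1, all in pig 3. PAX5, the factor that fixes B cell identity, and RAG1 and RAG2, which cut the antibody genes, had 0 UMIs in all 3 pigs. With 841607 UMIs over the selected cells, a count of 0 allows up to 3.56 CPM.

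Some genes of plasma cells were raised. Of 6 tested genes of that list, 3 were higher and none was lower, against 2.06% higher over all tested genes, with a median log2 fold change of 2.73. IRF4, a factor of plasma cells and dendritic cells, stood at 57.6, 36.4 and 81.2 CPM against 4.08, 0.860 and 5.05 CPM (log2 fold change 4.38 ± 0.67, edgeR adjusted p = 0.00201). DERL3, which removes misfolded proteins from the endoplasmic reticulum, stood at 273, 84.9 and 262 CPM against 36.7, 20.02 and 23.9 CPM (log2 fold change 3.05 ± 0.51, edgeR adjusted p = 0.00369). SDC1, the proteoglycan CD138, rose by 2.91 ± 0.68, and its call was lost without pig 1 or pig 3 (adjusted p = 0.145 and 0.157). MZB1, a chaperone of antibody assembly, stood at 245, 231 and 523 CPM against 36.3, 8.29 and 148 CPM and did not pass without the block (log2 fold change 2.54 ± 0.74, edgeR adjusted p = 0.114) and passed with it (3.02 ± 0.39, adjusted p = 1.46e-12). JCHAIN, which joins antibody units, stood at 28.8, 0 and 692 CPM against 80.9, 20.4 and 721 CPM, and 1 cell held 432 of its 477 UMIs in pig 3.

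Receptors that guide immune cells into tissue were a further group. Of 10 tested chemokine and homing receptors 5 were higher and none was lower, against 2.06% higher over all tested genes, with a median log2 fold change of 3.19. CCR2, the receptor for CCL2, was even across pigs at 43.2, 48.5 and 49.3 CPM against 1.36, 2.88 and 7.58 CPM (log2 fold change 3.63 ± 0.63, edgeR adjusted p = 0.00482), a call lost with thinned cells. ITGA4, the alpha-4 integrin, stood at 101, 48.5 and 103 CPM against 5.66, 3.24 and 10.9 CPM (log2 fold change 3.81 ± 0.56, edgeR adjusted p = 0.00152). CMKLR1, the chemerin receptor, stood at 86.3, 36.4 and 47.8 CPM against 1.36, 3.89 and 6.66 CPM (log2 fold change 3.79 ± 0.62, edgeR adjusted p = 0.00324). CXCR4, the receptor for CXCL12, rose by 2.37, a call lost without pig 3 (edgeR adjusted p = 0.0782).

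Of 16 tested genes of nucleic acid sensing and the interferon response 3 were higher and none was lower, against 2.06% higher over all tested genes, with a median log2 fold change of 1.67. IRF7 was 1 of the 3. UNC93B1, the chaperone of endosomal Toll-like receptors, stood at 259, 121 and 297 CPM against 8.61, 4.96 and 36.9 CPM (log2 fold change 3.89 ± 0.68, edgeR adjusted p = 0.00485). TLR3, the endosomal sensor of double-stranded RNA, had 2, 2 and 51 UMIs and rose by 3.91 ± 0.60, a call lost without pig 3 (edgeR adjusted p = 0.363). The interferon-induced genes IFI6 and IFIT1 were not called. With the pig as a block 9 of the 16 genes were higher, where 640 of all 15234 tested genes were higher. MYD88, MX1, MX2, STAT2 and TLR7 were among those added, and IFI6 was lower by its test (log2 fold change -0.90 ± 0.26, edgeR adjusted p = 0.0159). Of 8 antigen presentation genes B2M, the light chain of class I molecules, and SLA-DMA and SLA-DMB, which load class II molecules, were higher, 3 of 8 against 2.06% over all tested genes, with log2 fold changes of 2.13, 2.29 and 2.17. All 3 calls were lost with cells thinned to the threshold of pig 1 and without pig 1 (edgeR adjusted p = 0.0588, 0.0733 and 0.106). CD74, the invariant chain, did not pass without the block and passed with it (log2 fold change 0.87 ± 0.25, edgeR adjusted p = 0.0122), as did IFI30. CD74 stood at 1655, 1189 and 2829 CPM against 754, 649 and 1950 CPM.

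Of 13 tested identifiers of T and natural killer cell genes, 3 were higher, against 2.06% over all tested genes. With the pig as a block 5 were higher, with CD5 and CD8A added, where 640 of all 15234 tested genes were higher. CD247, the zeta chain of the T cell receptor, stood at 115, 146 and 78.3 CPM against 31.0, 17.3 and 26.9 CPM (log2 fold change 2.12 ± 0.45, edgeR adjusted p = 0.0188), a call lost without pig 2 or pig 3 (adjusted p = 0.126 and 0.128). IL7R had 1, 0 and 8 UMIs in the selected cells. PRF1, the pore-forming protein of cytotoxic cells, had all of its 15 UMIs in pig 3. The calls of both rest on pig 3: without it IL7R was no longer tested and PRF1 had an edgeR adjusted p of 0.868 with the opposite sign. Of the T and natural killer cell genes that the rule used, CD3E had 0, 0 and 2 UMIs and CD3D had 1, 0 and 0. NKG7, a protein of cytotoxic granules and the last of these, had 2, 0 and 55 UMIs. It was found in 43 of the 128 selected cells of pig 3 and stood there at 79.7 CPM against 29.9 CPM in the other cells.

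The transcript of CST3, the protease inhibitor cystatin C, took 9.45%, 2.67% and 4.96% of all UMIs of the selected cells in pig 1, 2 and 3, against 0.579%, 0.532% and 0.270% in the other called cells. CST3, PLAC8, RGS1 and MGP were singled out after their levels had been seen. CST3 had a log2 fold change of 3.68 ± 0.44 (SE, edgeR adjusted p = 0.000430). In the macrophage-marker cells it stood at 38219, 29998 and 9685 CPM, against 94464, 26660 and 49629 CPM in the selected cells, which were thus lower in pig 2, although the 8 cells of pig 2 with more than 1 VPREB1 UMI stood at 52987 CPM. Against those cells the log2 fold change was 1.17 ± 0.27 (edgeR adjusted p = 0.00105), a call lost without pig 1 or pig 3 (adjusted p = 0.597 and 0.779), with DESeq2, with 500 UMIs in every library and with thinned cells. PLAC8 stood at 6476, 2609 and 6816 CPM against 178, 42.2 and 393 CPM (log2 fold change 4.80 ± 0.66, edgeR adjusted p = 0.000832). RGS1, a brake on G protein signalling in immune cells, stood at 1612, 1286 and 1734 CPM against 58.7, 23.1 and 87.2 CPM (log2 fold change 4.84 ± 0.49, edgeR adjusted p = 0.000183). MGP, the matrix Gla protein that inhibits calcification, stood at 2101, 303 and 2088 CPM against 73.6, 125 and 66.7 CPM (log2 fold change 4.19 ± 0.62, edgeR adjusted p = 0.00157). Of the identifiers without a symbol, ENSSSCG00000010077 had high levels of 1626, 789 and 1450 CPM in the selected cells against 71.4, 2.48 and 23.2 CPM.

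The 6 named genes lower in the selected cells were mostly chemokines and genes of few UMIs. CCL11, the chemokine eotaxin, had 0 UMIs in the selected cells of all 3 pigs and stood at 34.2, 26.9 and 32.1 CPM in the other cells. With 3 counts over the selected cells as the floor it was at least 8.42-fold lower. FAM184B also had 0 UMIs, against 15.9, 23.6 and 13.5 CPM, which is at least 5.10-fold lower. CCL2, which attracts monocytes, had 0, 0 and 4 UMIs, and CCL21, which attracts cells with CCR7, had 2, 0 and 12. YAP1, a coactivator of the Hippo pathway, had 0, 1 and 6 UMIs. CCDC112 had 1 UMI in all, a ratio of 0.0580 to the other cells (exact 95% counting interval 0.00147 to 0.324). Of the 6, all but CCL21 passed the filter on low counts only through the other called cells, so their calls and bounds are a description. No call of the 6 held in all 3 fits that left out a pig, with edgeR adjusted p of up to 0.511.

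The second comparison set these cells against those of the same testes that held several macrophage markers. Called cells with UMIs of at least 3 of CD163, C1QA, C1QB, C1QC, AIF1 and CSF1R, outside the selected and the dropped cells, were taken as macrophage-marker cells. There were 46 in pig 1, 50 in pig 2 and 291 in pig 3, with 51153, 198948 and 2357744 UMIs. Macrophage transcripts were widespread in pig 3 at full depth: at least 2 of the 6 genes were found in 2.46%, 2.58% and 28.4% of the other called cells of pig 1, 2 and 3, and C1QA in 35.5% of the 245 cells with germ cell markers of pig 3. After thinning to the threshold of pig 1 the C1QA share of those 245 cells was 2.04%. How many of the cells taken there were macrophages was not tested. The 6 genes that chose them were left out of the test with those of the rule, and 10655 genes were tested. In the VPREB1 IRF8 cells 155 genes were higher, 1.45% of those tested, and 242 were lower, 2.27%, with a median log2 fold change of -0.08 over all tested genes. Without pig 3, which holds most of the UMIs of both sums, the counts were 3 and 28, and without pig 1 they were 89 and 154. The comparison therefore rests on pig 3 for nearly all of its calls.

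The 12 named genes with the highest fold changes against the macrophage-marker cells were nearly missing from those cells. GPR174, a receptor for lysophosphatidylserine on lymphocytes, stood at 518, 133 and 233 CPM against 0, 0 and 3.82 CPM, the last from 9 UMIs. GAPT stood at 130, 97.1 and 152 CPM against 0, 0 and 2.12 CPM, the last from 5 UMIs. CLEC12A, a receptor of myeloid cells, stood at 187, 133 and 228 CPM against 19.5, 0 and 2.54 CPM, from 1, 0 and 6 UMIs. SKAP1, an adaptor of T cell adhesion, stood at 230, 72.8 and 94.2 CPM against 0, 0 and 2.97 CPM. CD8B, a chain of the co-receptor CD8, stood at 101, 36.4 and 73.9 CPM against 0, 0 and 1.70 CPM. The last level came from 4 UMIs, and the log2 fold change was 5.32 ± 0.91. CD8B passed the filter on low counts only through the selected cells, so these values are a description. SMIM5 and XCL1 were again among the 12, with log2 fold changes of 5.62 and 5.61.

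The other 5 genes of the 12 had 1 to 3 UMIs in the macrophage-marker cells. Like GPR174, GAPT, CLEC12A, SKAP1, CD8B and SMIM5, they passed the filter on low counts only through the selected cells. The place of all these genes among the 12 is thus a description. TBXA2R, the thromboxane receptor, had a ratio of summed levels of 80.6 (exact 95% counting interval 13.2 to 3303). IL18R1, the receptor of interleukin 18, had a ratio of 86.8 (14.3 to 3548). CRHBP had a ratio of 58.9 (15.2 to 504), EPS8L2 70.2 (23.0 to 349) and MAP1LC3C 102 (17.1 to 4160). None of the 12 kept its call without pig 3. The unnamed identifier ENSSSCG00000010077 rose by 5.63 on the log2 scale. ENSSSCG00000025687 had 1, 0 and 5 UMIs in the macrophage-marker cells and also passed the filter only through the selected cells.

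Some genes of plasmacytoid dendritic cells and of plasma cells were also higher than in the macrophage-marker cells, against 1.45% higher over all tested genes. Of 9 tested genes of the plasmacytoid dendritic list 5 were higher and none was lower, with a median log2 fold change of 2.23. BCL11A stood at 720, 316 and 377 CPM against 97.7, 20.1 and 29.7 CPM (log2 fold change 3.62 ± 0.56, edgeR adjusted p = 2.46e-08). CD4 stood at 288, 170 and 300 CPM against 39.1, 30.2 and 5.51 CPM (log2 fold change 4.07 ± 0.65, edgeR adjusted p = 6.14e-08). TCF4 and SLC15A4 rose by 2.45 and 2.16. FLT3, also counted among the 5, had 0, 0 and 9 UMIs in the macrophage-marker cells. It passed the filter on low counts only through the selected cells, so its place in the count is a description. All 5 calls were lost without pig 3, and those of TCF4, SLC15A4 and FLT3 also without pig 1. PLD4 and IRF7 stood at 313, 161 and 144 CPM and at 58.6, 55.3 and 112 CPM in the macrophage-marker cells and were called higher only with the pig as a block (edgeR adjusted p = 0.0410 and 0.0382). Of 6 plasma cell genes 4 were higher, with a median log2 fold change of 2.98. MZB1 stood at 245, 231 and 523 CPM against 0, 5.03 and 29.7 CPM (log2 fold change 4.06 ± 0.57, edgeR adjusted p = 4e-10), and of the named genes higher in this comparison it alone kept its call without each pig in turn.

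**Figure D3:**
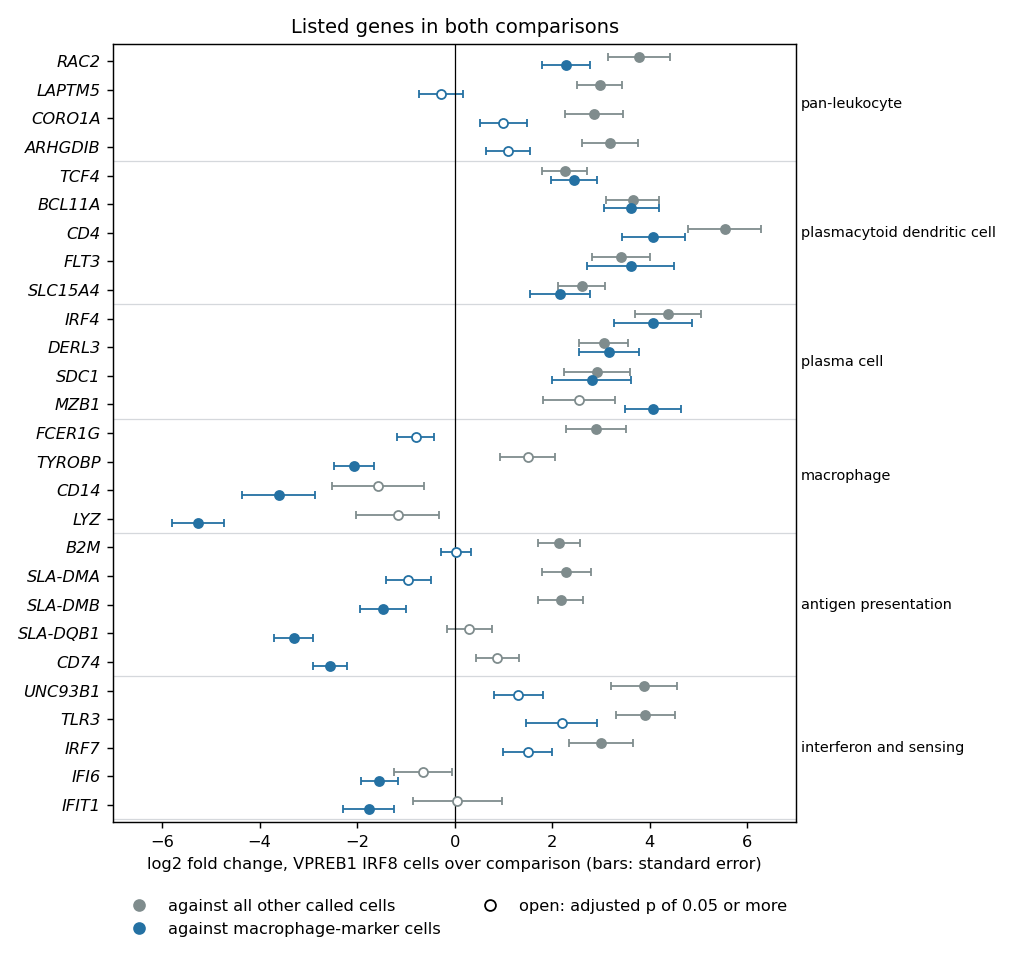
Log2 fold change (x axis, points, with bars of 1 standard error) of listed genes in the VPREB1 IRF8 cells against all other called cells (grey) and against macrophage-marker cells (blue), with open points at an adjusted p of 0.05 or more. TCF4 lay at 2.26 and 2.45 in the 2 comparisons, while CD74 lay at 0.87 and -2.56.

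Most tested macrophage genes were low in the selected cells relative to the macrophage-marker cells. Of 8 tested genes of the macrophage list 7 were lower than in the macrophage-marker cells and none was higher, against 2.27% lower over all tested genes. CD68, CD14, MRC1, MSR1 and MARCO had 3, 7, 6, 0 and 0 UMIs in the selected cells. They passed the filter on low counts only through the macrophage-marker cells, so the count that includes them is a description. The median log2 fold change was -4.44, or -3.30 with the genes at 0 UMIs set to their bound. LYZ, lysozyme, stood at 0, 0 and 53.6 CPM against 586, 2041 and 1044 CPM (log2 fold change -5.26 ± 0.53, edgeR adjusted p = 1.02e-19). CD68, a lysosomal glycoprotein of macrophages, had 0, 0 and 3 UMIs against 411, 327 and 215 CPM, a ratio of 0.0157 (exact 95% counting interval 0.00323 to 0.0461). CD14, the co-receptor for endotoxin, stood at 0, 12.1 and 8.70 CPM against 117, 176 and 47.9 CPM (log2 fold change -3.61 ± 0.75, edgeR adjusted p = 0.000107). TYROBP, a signalling adaptor of myeloid and natural killer cells, fell by 2.07 on the log2 scale. The scavenger receptors MSR1 and MARCO had 0 UMIs, and were at least 21.5-fold and 7.21-fold lower. MRC1, the mannose receptor, lost its call with the pig as a block and without each pig in turn (edgeR adjusted p between 0.153 and 0.816). The others but LYZ and CD68 lost theirs without pig 3.

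Of the antigen presentation list, 4 of 8 tested genes were lower than in the macrophage-marker cells and none was higher, against 2.27% lower over all tested genes. CD74 stood at 1655, 1189 and 2829 CPM against 17321, 12048 and 6097 CPM (log2 fold change -2.56 ± 0.35, edgeR adjusted p = 4.67e-11). SLA-DQB1, a class II chain, stood at 360, 279 and 647 CPM against 5826, 5765 and 2024 CPM (log2 fold change -3.30 ± 0.40, edgeR adjusted p = 9.76e-14). In both genes all 3 pigs were below every macrophage-marker sum, and both calls held without each pig in turn. IFI30, a lysosomal thiol reductase, and SLA-DMB fell by 1.80 and 1.47, and both calls were lost without each pig in turn (adjusted p up to 0.164 and 0.620). That of SLA-DMB was also lost under most other alternatives.

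The 6 named genes with the largest falls against the macrophage-marker cells all had 0 UMIs in the selected cells. They passed the filter on low counts only through the macrophage-marker cells, so their calls and bounds are a description. CCL11 stood at 1623, 653 and 191 CPM in the macrophage-marker cells and was at least 71.4-fold lower. PKIB, an inhibitor of protein kinase A, and MSR1 were at least 33.3-fold and 21.5-fold lower. RNF128, an E3 ubiquitin ligase, CXCL11, a ligand of CXCR3, and VSIG4, a complement receptor of tissue macrophages, were at least 14.95-fold, 13.9-fold and 11.4-fold lower. Of the 6, CCL11 alone kept its call without pig 3. CCL5, a chemokine of T cells and macrophages, stood at 28.8, 0 and 36.2 CPM against 723, 679 and 173 CPM (log2 fold change -4.12 ± 0.57, edgeR adjusted p = 1.89e-10).

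Among the remaining lists, LAMP3, a lysosomal protein of mature dendritic cells, was the only gene of the conventional dendritic cell list called higher, in both comparisons (1 of 8 tested, against 2.06% and 1.45% over all tested genes). It stood at 115, 72.8 and 190 CPM against 21.1, 1.87 and 7.72 CPM in all other cells and 0, 0 and 6.36 CPM in the macrophage-marker cells. Its call against all other cells was lost without pig 3 (edgeR adjusted p = 0.105), as was that against the macrophage-marker cells. XCR1 and FCER1A were also higher than in all other cells with the pig as a block, and CADM1 was lower. CLEC9A, a defining gene of type 1 conventional dendritic cells, had 0 UMIs in every sum of the 3 pigs. CADM1 and ID2 of that list were lower than in the macrophage-marker cells, by 2.86 and 1.84 on the log2 scale. ID2 lost its call without each pig in turn. SPI1, a factor of myeloid cells, fell by 2.65, and RAC2 rose by 2.28. S100A12 and S100A9 of the monocyte and granulocyte list were lower (2 of 6 tested) and so was the mast cell gene MS4A2 (1 of 2), against 2.27% lower over all tested genes. The call of S100A9 was lost under most alternatives, that of S100A12 without pig 1 and with at least 2 VPREB1 UMIs, and that of MS4A2 without pig 3 and with at least 2 VPREB1 UMIs. CXCR3 was the only homing receptor called higher, on 5, 0 and 23 UMIs against 0, 0 and 6 in the macrophage-marker cells. It thus passed the filter on low counts only through the selected cells, and its call is a description. That call was lost without pig 1 (edgeR adjusted p = 0.160) and with DESeq2, and without pig 3 the gene was no longer tested. Of the sensing and interferon list IFI6 and IFIT1 were lower, with log2 fold changes of -1.55 and -1.77. FOS and ATF3, immediate early genes, fell by 1.58 and 2.35. The calls of IFIT1 and FOS were lost without each pig in turn (edgeR adjusted p up to 0.15 and 0.232), that of IFI6 without pig 1 or pig 3 (0.166 and 0.0842) and with DESeq2, and that of ATF3 without pig 3 and with at least 2 VPREB1 UMIs. PRF1, IL7R and CR2 were called against the macrophage-marker cells in the fit without a block but not with the pig as a block.

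**Figure D4:**
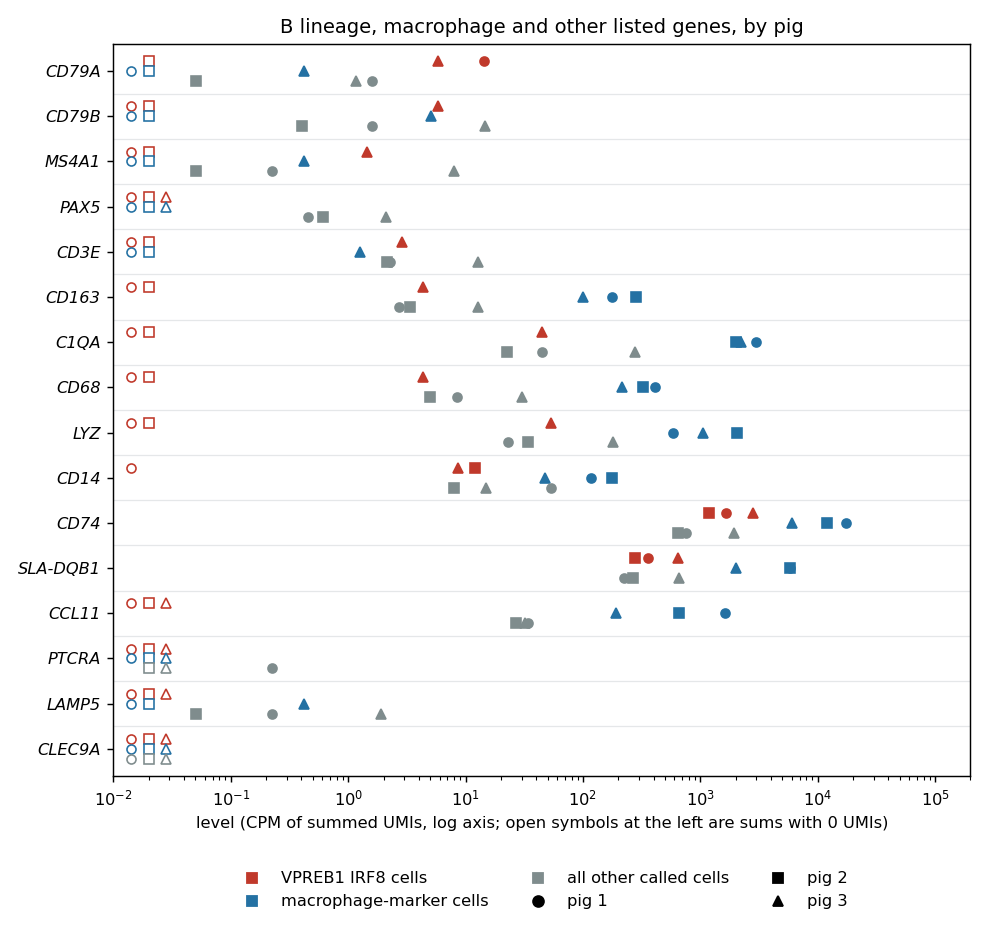
Levels of 16 genes in CPM of summed UMIs (log axis), with the colours and symbols of the plot of raised genes and open symbols at the left for sums with 0 UMIs; C1QA and CD163 are among the genes that chose the macrophage-marker cells. CD79B and MS4A1 were found in the red sums of pig 3 alone, PAX5 and CCL11 in none, and CD68 was at 0 UMIs in 2 of the 3 red sums.

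UMIs of genes of other testis cells were also found under the barcodes of these cells. INSL3 was found in 50.6%, 72.7% and 65.6% of them in pig 1, 2 and 3 and in 86.1%, 59.7% and 90.2% of the cells with germ cell markers, which should lack it. After thinning to the threshold of pig 1 the shares were 42.9%, 18.2% and 22.7% against 44.4%, 2.24% and 7.76%. These UMIs are not read as expression, and the share of RNA from outside the cells was not tested. INSL3, the hormone of Leydig cells, stood at 1597, 146 and 259 CPM in pig 1, 2 and 3 against 6450, 705 and 892 CPM. The 4 Leydig cell genes in the table summed to 2000, 158 and 303 CPM against 7998, 856 and 1093 CPM, and the 5 Sertoli cell genes to 532, 303 and 186 CPM against 1400, 1770 and 275 CPM. HBB, the haemoglobin chain, stood at 400 CPM in pig 3 against 399 CPM in the other cells of that pig, and at 0 UMIs in the selected cells of pig 1 and pig 2. JCHAIN stood at 721 and 839 CPM in the other and the macrophage-marker cells of pig 3, while most of its UMIs in the selected cells were in 1 cell. The 5 germ cell genes summed to 789 CPM in pig 2 against 259 CPM in its other cells, and UCHL1, which made 51 of these UMIs, was found in 1 of the 11 cells. The 5 endothelial genes summed to 28.8, 510 and 246 CPM against 24.7, 290 and 338 CPM, where 1 cell of pig 2 held all UMIs of VWF, CDH5 and EGFL7 and 8 of the 9 of PECAM1. The 6 stroma and myoid genes summed to 43.2, 704 and 451 CPM against 273, 1278 and 1425 CPM. The part of these transcripts in the results was not tested. No gene of the Leydig, Sertoli, germ, stroma, endothelial, erythroid, cell division and mast cell lists was called against all other cells in the fit without a block. With the pig as a block, 3 of 4 Leydig cell genes, 1 of 5 Sertoli cell genes and 3 of 6 stroma and myoid genes were lower and none was higher. Of all 15234 tested genes 200 were lower with the block. INSL3 had a log2 fold change of -1.94 ± 0.26 in that fit (edgeR adjusted p = 1.60e-11, against 0.325 without the block). Of these lists MS4A2 alone was called against the macrophage-marker cells, in both fits.

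Of the genes of cell division none of 7 tested was called in either comparison. MKI67, a marker of cycling cells, had 0, 1 and 10 UMIs, and at least 2 of the 7 division genes in the table were found in 0%, 18.2% and 12.5% of the cells of pig 1, 2 and 3, against 9.46%, 13.6% and 45.3% of the other cells. The selected cells of pig 3 were shallower than its other cells, with medians of 4206 and 6150 UMIs, so the 2 shares of that pig stand at unequal depth.

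Genes that mark macrophages were also counted cell by cell. C1QA had 0 UMIs in the selected cells of pig 1 and pig 2 and was found in 20 of the 128 cells of pig 3, or 15.6%, against 26.6% of the other called cells of that pig. With cells thinned to the threshold of pig 1 the 2 shares were 1.56% and 8.05%. Without AIF1, at least 2 of the other 5 marker genes were found in 0, 0 and 14 cells of pig 1, 2 and 3. AIF1 itself, a calcium-binding protein of macrophages that other leukocytes can express, stood at 648, 218 and 822 CPM against 58.9, 20.6 and 160 CPM in the other cells (log2 fold change 2.96 ± 0.66, edgeR adjusted p = 0.0263). That call was lost without pig 1 (adjusted p = 0.0527). FCER1G, a signalling chain of Fc receptors, stood at 1713, 570 and 1148 CPM against 114, 44.0 and 335 CPM (log2 fold change 2.90 ± 0.62, edgeR adjusted p = 0.0194), also lost without pig 1 (adjusted p = 0.0807). Both calls were also lost with thinned cells. They were the 2 genes of 15 in the macrophage list called higher against all other cells, where 2.06% of all tested genes were higher. In the fit with the pig as a block TYROBP was also higher, and C1QA, C1QB, C1QC, CSF1R, LYZ and MSR1 were lower (C1QA -2.59 ± 0.61, edgeR adjusted p = 0.000742). The median log2 fold change of that list was -1.91, or -0.87 with its genes at 0 UMIs set to their bound.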

How the data were processed

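Testes of 3 pigs were digested and sequenced as 10x libraries. The authors deposited raw UMI counts per gene and barcode, aligned to Sscrofa11.1. The submitters' notes name Cell Ranger 2.1.0, while the header of the pig matrices gives software version 3.0.2. The pig files hold no barcode under 500 UMIs.

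Members were chosen by their own transcripts, and the rule, the gene lists and the tests were chosen with earlier results of these data known. Raw counts were summed per pig over the selected cells, over all other called cells and over the macrophage-marker cells. Genes that reached 10 counts across the 6 sums entered a quasi-likelihood fit in edgeR 4.0.16 (R 4.3.3) with TMM factors and no block, with Benjamini-Hochberg adjustment at 0.05 over all tested genes. Fold changes are on edgeR's log2 scale. Sums of the same pig come from the same animal and library and are thus paired. Their deviations correlated at 0.234, 0.098 and 0.196 for pig 1, 2 and 3 in the first comparison and at 0.200, 0.033 and 0.204 in the second. The test was tried on simulated counts.

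The text names the 12 called genes with the highest and the 6 with the lowest log2 fold change in each comparison, with a symbol, at least 20 UMIs and the same direction in every pig, beside the called genes of the lists. Of 192 listed genes 164 have a row in the pig table. Scrublet (scanpy 1.11.5) gave doublet scores. Its automatic threshold marked 159, 1 and 10 barcodes, so the highest scores, 0.8% for every 1000 cells, were left out as an alternative, which were 84, 124 and 41 barcodes and 2, 0 and 4 selected cells. Other alternatives were library size alone, DESeq2 1.42.0, no filter on low counts, the pig as a block, each pig left out, 500 UMIs in every library, at least 2 VPREB1 UMIs, IRF8 and CTSS both, no dropped cells, and cells thinned to the threshold of pig 1. The counting intervals cover counting error only. The p-values of the fit without a block measure the spread between the sums within each group. They treat the 2 sums of a pig as independent. Some genes of the lists are not reported here by name.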

Additional observations from a re-analysis of the deposited data

Results flagged for a closer look

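Outside the called cells, 113 barcodes also met the rule, 38 of 2972 in pig 1, 16 of 18988 in pig 2 and 59 of 6531 in pig 3. They hold at least 500 UMIs but fewer than the threshold of their library, and no comparison above uses them except the alternative with 500 UMIs in every library. They were singled out because the signal lies in barcodes that the comparisons left out.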

How the results depend on the processing

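The share of the selected cells moved with the rule and the depth. With 500 UMIs in every library it was 1.85%, 0.118% and 2.12% in pig 1, 2 and 3. With at least 2 VPREB1 UMIs it was 1.11% in pig 1 and 4.30% in pig 3, with IRF8 and CTSS both required 1.63% in pig 1, and after thinning to the threshold of pig 1 0.127% in pig 2 and 3.16% in pig 3. Pig 3 had the highest share and pig 2 the lowest under each of these, but the 95% intervals of pig 1 and pig 3 overlapped with 500 UMIs (1.53% to 2.22% and 1.83% to 2.45%) and after thinning (1.60% to 2.61% and 2.48% to 3.97%).

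With the pig as a replicate block, 640 genes were higher and 200 lower than in all other cells, against 314 and 10 without it. Against the macrophage-marker cells the block gave 185 and 240. It ended no call of the 57 named results of the first comparison, and in the second it ended those of PRF1, MRC1, IL7R and CR2. It added calls of listed genes, given above for most of them. The others were LCP1, PTPRC, CXCR3, CCR7 and EGR1 against all other cells, and PTPRC, FCER1G, TLR3, ISG15 and CMKLR1 against the macrophage-marker cells. After thinning, the counts were 154 and 81 against all other cells and 102 and 156 against the macrophage-marker cells. The count of lower genes against all other cells was 43 with DESeq2, 281 without the filter, 36 with 500 UMIs, 187 with at least 2 VPREB1 UMIs, which leaves out pig 2 with its 8 cells, 355 with pig 2 kept (an alternative chosen after seeing the data), and 16 without the highest Scrublet scores. Against the macrophage-marker cells DESeq2 gave 79 and 116, and at least 2 VPREB1 UMIs gave 125 lower genes. Of the 57 named results of the first comparison, 47 kept their call with 500 UMIs, 39 after thinning and 56 with DESeq2, and of the 64 of the second 57, 51 and 45. The rest lost it or were no longer tested. The cause of these shifts was not tested.

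Leaving out each pig gave 168 to 333 higher and 15 to 34 lower genes against all other cells. Against the macrophage-marker cells it gave 3 to 173 higher and 28 to 189 lower genes, with the lowest counts without pig 3. PRF1 alone changed direction, with a log2 fold change of -5.04 against all other cells without pig 3, where the selected cells had 0 UMIs of it. Without the other pigs it was 4.25 (pig 1) and 3.74 (pig 2). Of the named genes higher than in all other cells, 32 of 51 were called in every such fit, and of those lower 0 of 6. Against the macrophage-marker cells it was 1 of 36 and 6 of 28. The median log2 fold change of all genes against all other cells was -0.47, -0.55 with library size alone and -0.15 with DESeq2. The depth of pig 1 and pig 2, with 69487 and 82407 UMIs over the selected cells, limits what their sums can show.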

Other observations

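The RefSeq annotation holds 10 other genes within 100 kb of VPREB1, of which 7 have a row by symbol in the pig table. DERL3 and TOP3B were higher in the selected cells in both comparisons, and PPM1F was higher against the macrophage-marker cells only by its test (edgeR adjusted p = 0.0388, and 0.0864 against all other cells). The difference between the comparisons was not tested. TOP3B, a topoisomerase at chr14:50020412-50037854 on the plus strand, lies 47644 bases from VPREB1. It stood at 115, 121 and 95.7 CPM in pig 1, 2 and 3 against 12.5, 9.56 and 16.0 CPM in all other cells (log2 fold change 3.14 ± 0.44, edgeR adjusted p = 0.000936). Against the macrophage-marker cells its log2 fold change was 3.11 ± 0.66 (edgeR adjusted p = 0.000182), a call lost without pig 3 (adjusted p = 0.127). DERL3, at chr14:49871077-49875022, lies 97036 bases from VPREB1 on its other side. Its call against the macrophage-marker cells was also lost without pig 3 (edgeR adjusted p = 0.444). SMARCB1, MMP11 and CHCHD10, which lie between DERL3 and VPREB1, were not called in either comparison. These genes were looked at after the values of DERL3 and TOP3B had been seen.

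Among the selected cells the deepest held 26659 UMIs in pig 2 and 39768 UMIs in pig 3, against medians of 3800 and 4206. In pig 3, 66.4% of the selected cells held a UMI of HBB and 30.5% held a UMI of JCHAIN. MGP was found in 70.1%, 72.7% and 93.0% of the selected cells of pig 1, 2 and 3, or in 64.9%, 27.3% and 71.9% after thinning to the threshold of pig 1, against 4.38%, 7.70% and 5.72% of the other called cells after thinning.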
